A study of Mus musculus with 12 samples.

Results

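Sncb and Sncg encode beta-synuclein and gamma-synuclein. They were found as the rows of the deposited count table that carry these gene symbols, which gives 2 genes of the 18394 listed. Both were chosen by their cKO against WT log2 fold changes in these same libraries, so those values are given as a description, and the calls given for them are counts set beside the background that support nothing. The libraries were made from messenger RNA of whole mouse cerebella: 6 cKO mice, labelled as deltaalpha6-Cre Crfr1 knock-out, and 6 WT mice. Crfr1 is the type 1 receptor of corticotropin-releasing factor, listed here as Crhr1, and the Cre driver takes its name from the alpha6 GABA-A receptor subunit of granule cells. Strain, age and sex are not given in the labels, and no group carried the driver alone, so receptor loss, the driver and linked DNA cannot be told apart.

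Synucleins are small soluble proteins whose amino-terminal part carries imperfect repeats that fold into a helix on lipid membranes. Beta-synuclein is abundant in presynaptic terminals of the central nervous system, where it is found with synaptic vesicles. Gamma-synuclein is best known from peripheral, motor and sensory neurons, retinal ganglion cells and some brainstem nuclei, and it is also made by fat cells.

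The coding sequences begin alike, which matters for whether reads of the genes can be told apart. The first 90 bases of each, 5′ to 3′ from the start codon, are shown from the longest coding transcript of GENCODE release M21, with capitals at the positions where both genes hold the same base.
Sncb: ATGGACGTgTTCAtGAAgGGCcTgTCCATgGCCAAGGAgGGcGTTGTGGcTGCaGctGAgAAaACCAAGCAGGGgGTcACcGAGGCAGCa
Sncg: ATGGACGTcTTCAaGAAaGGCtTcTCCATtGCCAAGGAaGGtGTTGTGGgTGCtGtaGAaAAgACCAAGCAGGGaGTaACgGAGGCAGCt
Of these 90 bases 72 were identical. Over the aligned coding sequence 255 of 359 bases, or 71.0%, were identical, and the longest run shared exactly by the whole transcripts was 16 bases. Sncb lies on the minus strand of chromosome 13 (54758860 to 54766595, mm10), and its longest coding transcript has 6 exons. Sncg lies on the minus strand of chromosome 14 (34370274 to 34374789, mm10) with 5 exons. The annotation places no other gene over either.

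The libraries held 32316716 to 58710874 counts in cKO and 23803779 to 62104185 in WT. Crhr1 ranged from 88.7 to 104.8 CPM in cKO and from 91.6 to 101.6 CPM in WT, where CPM is the count per 1000000 counts of the library after TMM scaling of library sizes. Counts over the whole gene in all cerebellar cells do not check a deletion in one cell type. The Purkinje cell marker Pcp2 was present at 198 to 222 CPM in cKO and 185 to 209 CPM in WT. The labels tell nothing of litters or of separate days, so p-values measure the spread between these libraries.

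Beta-synuclein messenger RNA was abundant in the cerebellum and gamma-synuclein messenger RNA was scarce. Sncb held 8100 to 14941 counts per library in cKO and 6159 to 16996 in WT. Sncg held 72 to 159 counts in cKO and 57 to 119 in WT. Per kilobase of annotated exon, the scale on which genes can be compared, Sncb reached 119 ± 6.68 CPM in cKO and 126 ± 4.37 CPM in WT (SD, n = 6 each). Sncg reached 2.81 ± 0.30 CPM per kilobase in cKO and 2.43 ± 0.34 in WT (SD, n = 6 each). By level per kilobase Sncb ranked 191 of 14911 genes with an annotated length, and Sncg ranked 9973.

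**Figure D1:**
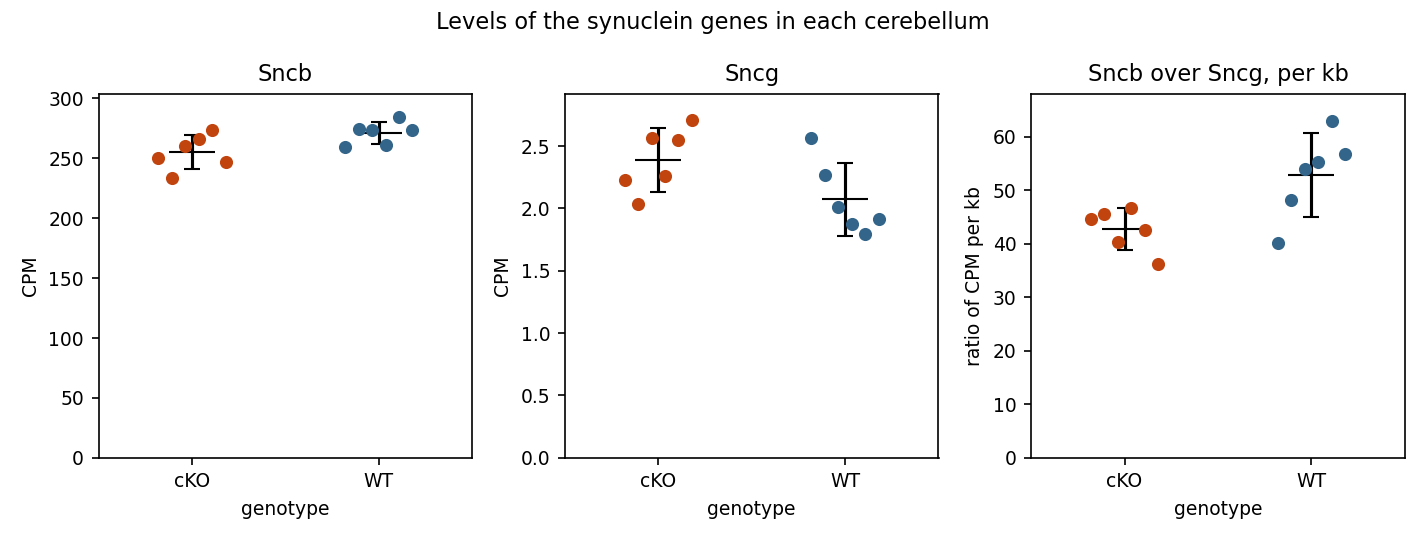
Levels of Sncb and Sncg in CPM and the ratio of their levels per kilobase (y axes, all from 0) in each of the 6 cKO and 6 WT cerebella (points), with the mean and SD (bars). The cKO points lie low in the Sncb panel, high in the Sncg panel and low in the ratio panel, and the groups overlap in all panels.

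Sncb was slightly lower in cKO cerebella. Its lowest, median and highest levels were 234, 255 and 274 CPM in cKO, against 259, 274 and 284 CPM in WT. All 6 cKO libraries lay below the WT median, 3 of them below every WT library, and 4 WT libraries lay above every cKO library. The means were 255 ± 14.3 CPM in cKO and 271 ± 9.37 CPM in WT (SD, n = 6 each), a log2 fold change of −0.09 (SE 0.03) or a change of −5.91%. In the authors' deposited table, whose scale may differ as described for Sncg below, Sncb had a log2 fold change of −0.08 (SE 0.03). In a bulk sample, fewer cells of a type and less RNA per cell cannot be told apart.

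Markers of several cerebellar cell types differed between the same groups. Of 18 granule cell markers 3 rose and 6 fell at an edgeR adjusted p under 0.05, where 1.27% of all genes tested rose and 1.38% fell. The granule cell list summed to 8474 to 9152 CPM in cKO and 8840 to 9203 CPM in WT. Gabra6, the receptor subunit after which the driver is named, fell to 623 ± 30.0 CPM in cKO, against 813 ± 56.1 CPM in WT (SD, n = 6 each; edgeR adjusted p = 1.45e-05). Of 7 tested markers of unipolar brush cells 1 rose and 2 fell, among them Eomes, their transcription factor, at 11.8 ± 1.17 CPM in cKO and 21.8 ± 2.06 CPM in WT (SD, n = 6 each; edgeR adjusted p = 3.06e-07). In that list 6 of the 7 had a negative log2 fold change, where 7759 of the 15467 genes tested were negative and 7708 positive. The list summed to 1073 to 1134 CPM in cKO and 1037 to 1061 CPM in WT. Calb2, the 1 marker that rose, averaged 483 ± 18.2 CPM in cKO and 386 ± 9.92 CPM in WT (SD, n = 6 each). Of 15 interneuron markers Lgi2 fell and 0 rose, 13 had a negative log2 fold change, and the list summed to 1966 to 2148 CPM in cKO and 2135 to 2226 CPM in WT. Of 12 microglia markers 2 rose and 0 fell, 12 had a positive log2 fold change, and the list summed to 184 to 216 CPM in cKO and 173 to 189 CPM in WT. Markers in a list may vary together, and these counts of signs were not tested. By edgeR, 0 of 15 Purkinje cell, 0 of 15 Bergmann glia and astrocyte and 0 of 14 oligodendrocyte markers were called. So were 0 of 12 endothelial and mural cell and 0 of 16 choroid plexus and meningeal markers, where 2.64% of all genes tested were called. Within genotypes, Pearson r of Sncb with the mean standardised level of each list was 0.42 for granule cells and −0.42 for unipolar brush cells. It was 0.67 for interneurons (0.81 within cKO, 0.17 within WT) and −0.56 for microglia (n = 12 libraries). For Purkinje cells it was −0.63 (−0.75 within cKO, −0.28 within WT). Permutation p adjusted over 37 relations was 0.711, 0.531, 0.403, 0.531 and 0.486 in that order. The part of these cell types in the cKO against WT values of Sncb and of the vesicle genes was not tested.

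Sncg was slightly higher in cKO cerebella, in the opposite direction to Sncb. Its lowest, median and highest levels were 2.04, 2.41 and 2.71 CPM in cKO, against 1.80, 1.97 and 2.57 CPM in WT. All 6 cKO libraries lay above the WT median but only 1 lay above every WT library, and 4 WT libraries lay below every cKO library. WT replicate 1, with 61 Sncg counts in the shallowest library, was the highest of its group. The means were 2.39 ± 0.26 CPM in cKO and 2.07 ± 0.29 CPM in WT (SD, n = 6 each), a log2 fold change of 0.23 (SE 0.11) or 1.17-fold. The log2 fold change was 0.10 (SE 0.16) after thinning all libraries to the smallest total and 0.40 (SE 0.13) with 3 surrogate variables in the fit. The authors' deposited table lists a log2 fold change of 0.09 (SE 0.05) for Sncg, in a column whose standard errors reach at most 0.0488 for any gene. DESeq2 run here gave 0.23 (SE 0.12) for Sncg, so the deposited fold changes may be on another scale than those here.

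Neither member was called among the 15467 genes tested with the edgeR quasi-likelihood test at an adjusted p of 0.05: 0 of 2, where 2.64% of all genes were called. At an unadjusted p under 0.05 the count was 2 of 2, where 14.2% of all genes had such a p. DESeq2 called 0 of 2, where it called 3.7% of all genes, and 1 of 2 had an unadjusted p under 0.05. With the GC slope described below as a covariate, a fit chosen after the data were seen, Sncb had a log2 fold change of −0.11 (SE 0.02) and 1 of 2 was called, where that fit called 3.72% of all genes. Since the members were chosen with this contrast known, nothing is read from these counts.

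**Figure D2:**
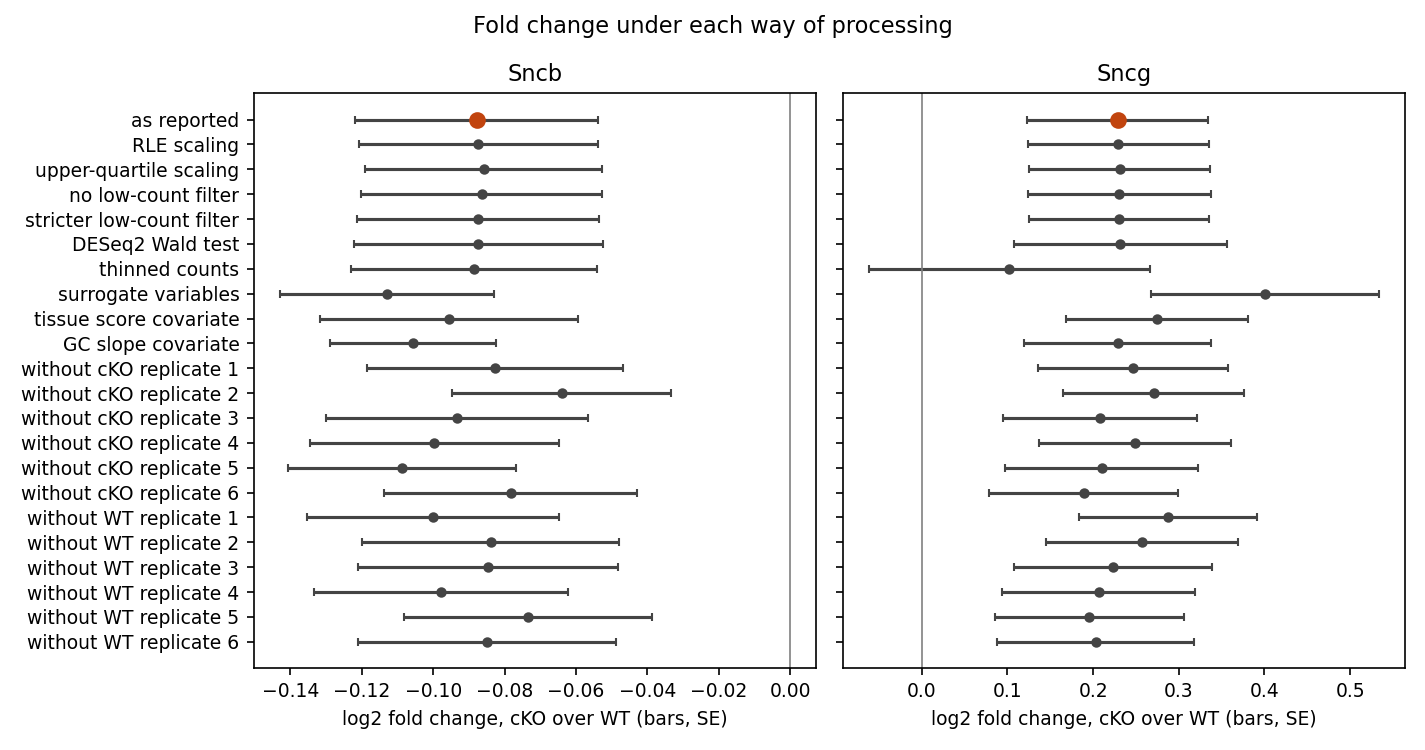
Log2 fold change of cKO over WT (x axis; bars, SE) for Sncb and Sncg as reported (large point) and under each other way of processing or with 1 library left out (rows). Sncb values lie between −0.11 and −0.06 and Sncg values between 0.10 and 0.40.

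The ratio of the genes was lower in cKO. Both members were chosen by their fold changes, which go opposite ways, so this direction follows from that choice and is only a description. Per kilobase, Sncb exceeded Sncg by 36.2 to 46.7 times in the cKO libraries, with a median of 43.6, and by 40.1 to 62.9 times in the WT libraries, with a median of 54.6. The ratio averaged 42.7 ± 3.92 in cKO and 52.9 ± 7.86 in WT (SD, n = 6 each). The ranges overlapped, through WT replicate 1. With the length of the longest transcript in place of all annotated exon bases, the ratios averaged 67.8 in cKO and 83.9 in WT, since Sncb has annotated exon sequence outside its longest transcript and Sncg has none.

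Counting error was a small part of the spread of Sncb among animals of a genotype and a large part of that of Sncg. Sncb varied with a CV of 5.61% in cKO and 3.46% in WT, where counting error alone gives 0.911% in cKO and 1.05% in WT. Pooled over genotypes its CV was 4.66%, and 88.5% of the 200 genes nearest to it in level had a lower CV. Sncg varied with a CV of 10.7% in cKO and 14.1% in WT, where counting error alone gives 9.37% in cKO and 12.2% in WT. Its pooled CV of 12.5% was above that of 42.5% of its 200 nearest genes in level. The biological CV, the spread that edgeR estimated apart from counting error, was 4.31% for Sncb and 8.66% for Sncg. Sncg was thus not the steadier gene among animals. Differences of Sncg between single animals of a genotype were close to what its few counts could resolve.

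**Figure D3:**
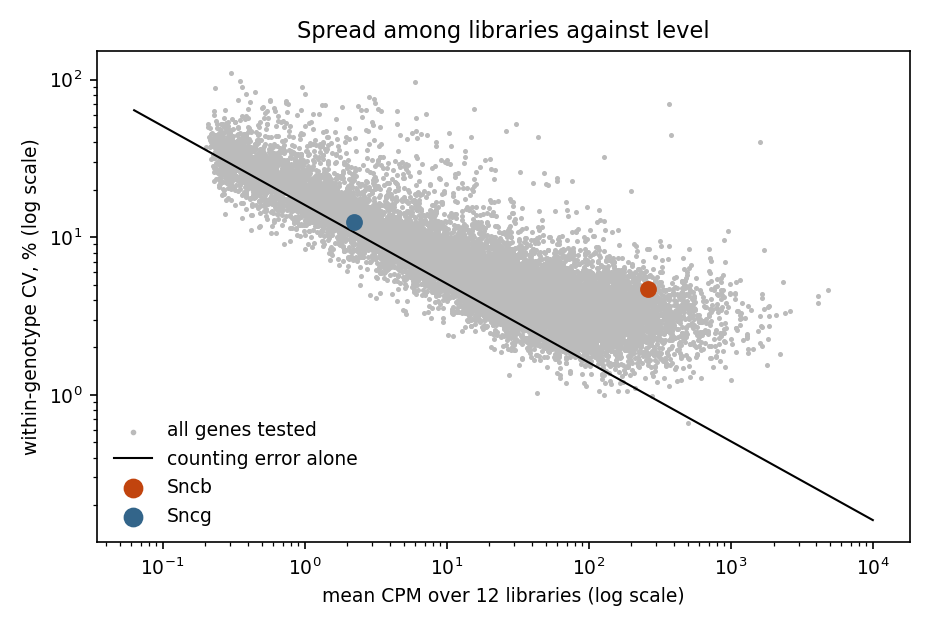
Within-genotype CV in percent against mean CPM over 12 libraries (both log axes) for all genes tested (grey), with Sncb, Sncg and the CV from counting error alone (line). Sncg, with a CV of 12.5%, sits near the line, and Sncb, with 4.66%, sits well above it.

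Among animals of the same genotype, Sncb followed the genes of synaptic vesicles and their fusion machinery. This uses variation that the cKO against WT contrast does not contain, since each gene was centred on the mean of its genotype. A list of 24 such genes, all measured, was summarised as the mean of their standardised levels in each library. Sncb correlated with this score at Pearson r = 0.94 (n = 12 libraries; two-sided permutation test within genotypes, p = 0.00016, adjusted p = 0.0059 over 37 relations) and Spearman rho = 0.94 (permutation p = 0.00014, adjusted p = 0.0052). Within cKO alone r was 0.96 and within WT alone it was 0.89 (n = 6 each). Without the 2 libraries farthest from the median score r was 0.88, and leaving out each library in turn gave 0.89 to 0.96. cKO replicate 2 had the lowest Sncb level and the lowest score of all 12 libraries, and cKO replicate 5 had the highest centred Sncb level and the highest score. Genes outside the list also followed Sncb, as described below. Whether the list is closer to Sncb than other genes of like GC content was not tested.

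No relation of Sncg to these genes was detectable at its depth. Its r with the same score was 0.03 (n = 12; permutation p = 0.922, adjusted p = 0.932) and its rho was 0.11 (permutation p = 0.742, adjusted p = 0.981), with r = 0.53 within cKO, r = −0.55 within WT and −0.44 without the 2 farthest libraries. Sncb and Sncg themselves had r = 0.03 (n = 12; permutation p = 0.918, adjusted p = 0.932) and rho = 0.03 (permutation p = 0.924, adjusted p = 0.991), with 0.48 within cKO, −0.54 within WT and −0.49 without the 2 libraries farthest in Sncb. Whether the relations of Sncb and Sncg to the list differ was not tested.

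**Figure D4:**
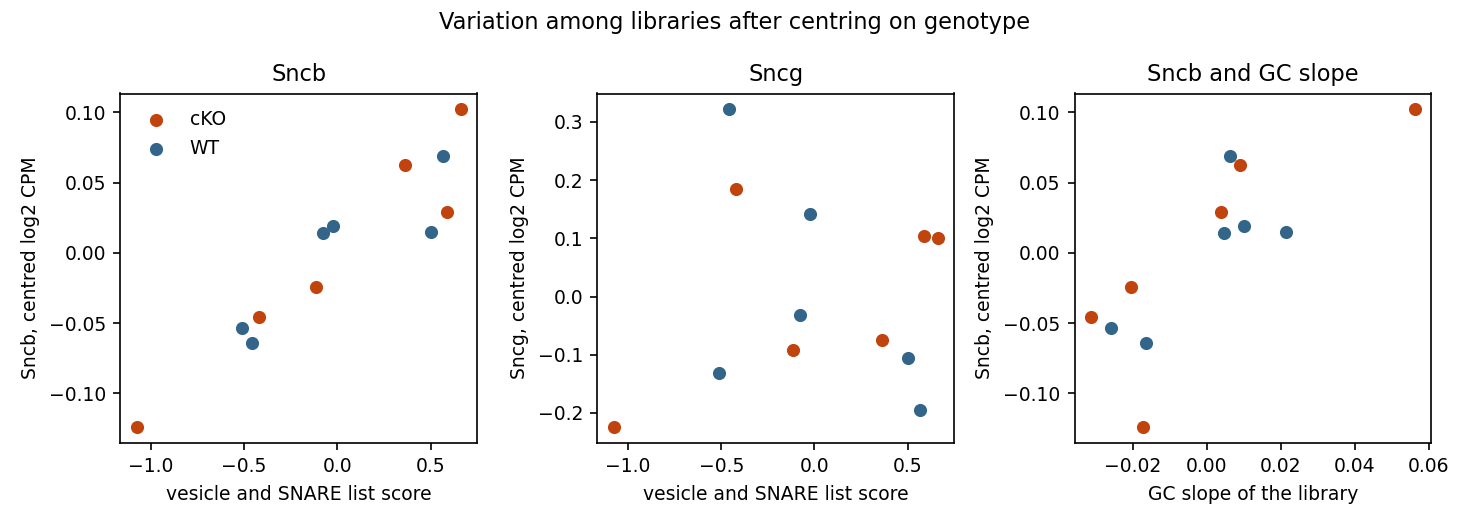
Centred log2 CPM of Sncb and Sncg (y axes) against the score of the 24 vesicle and SNARE genes, and of Sncb against the GC slope of the library (x axes), for 6 cKO and 6 WT libraries (points). Sncb rises with the score at r = 0.94 and with the GC slope at r = 0.81, and the Sncg points show no such line at r = 0.03.

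Gene by gene, 19 of the 24 had a positive correlation with Sncb, and the median r was 0.61. As a description, with no test, the highest was Rab3a, the small GTPase of synaptic vesicles, at 0.96. Cplx1, a complexin, had 0.89, Slc17a7, the vesicular glutamate transporter of parallel fibres, had 0.85, and Nsf, the ATPase that takes SNARE complexes apart, had 0.83. These were among the 6 genes at or above 0.8. Synaptic vesicle genes were not uniform: Syt1 had r = −0.01, Stx1a −0.07, Syn3 −0.34 and Napb −0.42. With Sncg, the same 24 genes ran from −0.55 to 0.44, with a median of 0.02.

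The genes most like Sncb among all 10346 others with a mean of at least 10 CPM were Jup, a junction protein (r = 0.96), Fbxo41, a neuronal F-box protein (r = 0.96), Rab3a, Cend1, a neuronal differentiation protein (r = 0.95), and Eef1a2, a translation elongation factor of neurons and muscle (r = 0.95). Over all these genes the median r was 0.02, and 254 of them, or 2.46%, reached 0.8. Transcripts of those 254 genes had a median GC content of 56.9%, against 49.7% over all genes and 42.0% for the 102 genes at or below −0.8. The Sncb transcript has a GC content of 61.4%. A GC slope, the mean over genes of centred log2 level times standardised transcript GC in each library, correlated with Sncb at r = 0.81 (n = 12; permutation p = 0.0054, adjusted p = 0.101) and rho = 0.75 (permutation p = 0.0096, adjusted p = 0.119), with 0.82 within cKO, 0.78 within WT and 0.76 without the 2 farthest libraries. With both measures also adjusted for this slope, an alternative chosen after the data were seen, Sncb and the vesicle and SNARE score had r = 0.84 (permutation p = 0.0049, unadjusted).

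The genes most like Sncg were Rab22a, an endosomal GTPase (r = 0.91), Plcd3, a phospholipase C (r = 0.84), Frmd3 (r = 0.82), Vta1, a protein of endosomal sorting (r = 0.81), and Ccdc32 (r = 0.81). In all, 6 of 10347 genes, or 0.058%, reached 0.8 with Sncg. With Sncg spread close to counting error, this order of likeness is a description of these 12 libraries.

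Neurofilament genes gave a mixed answer for Sncb. Sncb correlated with the score of the 4 tested neurofilament and related genes at r = 0.56 (n = 12; permutation p = 0.0342, adjusted p = 0.403) and rho = 0.76 (permutation p = 0.0022, adjusted p = 0.0409), with 0.48 within cKO, 0.79 within WT and 0.52 without the 2 farthest libraries. The rank correlation passed over the 37 relations and Pearson's did not. Apart from this and the vesicle and SNARE list, no other relation of Sncb or Sncg to a list, to library total or to the GC slope passed, with the smallest adjusted p at 0.101 for Pearson's r and 0.119 for Spearman's rho.

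Genes that work with synucleins were compared between genotypes in the fit over all genes. Of the 24 vesicle and SNARE genes, Syt2 rose and Syt1, Cplx2 and Syn2 fell, where 1.27% of all genes tested rose and 1.38% fell. The median log2 fold change of the list was −0.01, beside −0.00 over all genes. Syt1, the calcium sensor of release, averaged 457 ± 7.80 CPM in cKO and 601 ± 21.6 in WT (SD, n = 6 each), with −0.39 (SE 0.02) as log2 fold change and an adjusted p of 2.46e-08 in the edgeR test, while its r with Sncb within genotypes was −0.01. Syt2, another calcium sensor, averaged 345 ± 6.38 CPM in cKO and 297 ± 11.1 in WT, and Cplx2, a complexin, averaged 898 ± 45.5 CPM in cKO and 1087 ± 40.8 in WT (SD, n = 6 each). Syn2, a synapsin that tethers vesicles, averaged 303 ± 9.35 CPM in cKO and 335 ± 5.61 in WT (SD, n = 6 each), with −0.14 (SE 0.02) as log2 fold change and an adjusted p of 0.0015 in the edgeR test. Rab3a, which varied most like Sncb in the list, was not among the called genes.

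Of 18 tested kinases and phosphatases that act on synucleins 1 was called, where 2.64% of all genes tested were called. It was Grk5, a receptor kinase able to phosphorylate synucleins, which fell, and 0 rose. Grk5 averaged 17.2 ± 0.84 CPM in cKO and 25.3 ± 2.40 in WT (SD, n = 6 each), with −0.55 (SE 0.05) as log2 fold change and an adjusted p of 5.85e-06 in the edgeR test, and the groups did not overlap, as for 2.09% of all genes. Adrbk2, another kinase of this family, averaged 214 ± 7.77 CPM in cKO and 226 ± 3.79 in WT (SD, n = 6 each), with −0.08 (SE 0.03) as log2 fold change and an adjusted p of 0.0937 in the edgeR test. It passed with DESeq2 (adjusted p = 0.0315) and, in edgeR, without cKO replicate 6 (adjusted p = 0.0488). The list's median log2 fold change was 0.01.

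Among 20 genes of chaperones and synuclein turnover, Hspa8 and Ctsb rose and 0 fell, where 1.27% of all genes tested rose and 1.38% fell. The list had a median log2 fold change of 0.00. Hspa8, the constitutive chaperone that refolds synaptic proteins and serves chaperone-mediated autophagy, averaged 1365 ± 21.9 CPM in cKO and 1273 ± 28.5 in WT (SD, n = 6 each), with 0.10 (SE 0.02) as log2 fold change and an adjusted p of 0.0081 in the edgeR test. Ctsb, the lysosomal protease cathepsin B, averaged 653 ± 12.5 CPM in cKO and 609 ± 17.99 in WT (SD, n = 6 each), with 0.10 (SE 0.02) as log2 fold change and an adjusted p of 0.0210 in the edgeR test. Ctsb lost its call with surrogate variables (log2 fold change 0.07, adjusted p = 0.329) and without WT replicate 3 (adjusted p = 0.0570). Of 4 tested neurofilament genes 0 were called by edgeR and 0 had an unadjusted p under 0.05, and DESeq2 called 0. Nefh, the heavy neurofilament subunit, came closest, at 142 ± 6.43 CPM in cKO and 148 ± 6.65 in WT (SD, n = 6 each; edgeR adjusted p = 0.388).

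Cell types known for gamma-synuclein were looked for beside Sncg. Markers of cholinergic and motor neurons summed to 0.534 to 0.955 CPM in cKO and 0.461 to 0.806 CPM in WT, with Chat, the acetylcholine synthesis enzyme, at 0 in 3 cKO and 4 WT libraries. Fat cell markers summed to 0.278 to 0.674 CPM in cKO and 0.220 to 0.461 CPM in WT, and Adipoq, the fat cell hormone adiponectin, was at 0 in 3 libraries of each genotype. Prph, the peripherin filament of peripheral neurons, held 2 to 10 counts in cKO and 3 to 8 in WT. Hox genes of the posterior hindbrain summed to 0.286 to 0.494 CPM in cKO and 0.170 to 0.942 CPM in WT, and 0 of the 13 listed passed the filter on low counts. Monoaminergic markers summed to 10.9 to 13.3 CPM in cKO and 11.4 to 12.5 CPM in WT, with 0 of 4 tested genes called by edgeR, 0 at an unadjusted p under 0.05 and 0 called by DESeq2.

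Markers of cerebellar nuclei summed to more in cKO, and those of forebrain and midbrain were mixed. Over all genes tested, 1.27% rose and 1.38% fell, and 7708 of 15467 had a positive log2 fold change. Of 10 cerebellar nuclei markers Kcnc1, a fast potassium channel that granule cells also express, rose (1144 ± 28.02 CPM in cKO and 1035 ± 29.1 in WT, SD, n = 6 each; edgeR adjusted p = 0.0012) and 0 fell, 8 had a positive log2 fold change, and the median was 0.21. The list summed to 1262 to 1338 CPM in cKO and 1137 to 1239 CPM in WT, most of it from Kcnc1. Among 12 tested forebrain and midbrain markers Penk, which encodes proenkephalin, fell (106 ± 8.69 CPM in cKO and 126 ± 6.77 in WT, SD, n = 6 each; edgeR adjusted p = 0.0049), 8 had a positive log2 fold change, and the median was 0.28. The forebrain and midbrain list summed to 258 to 290 CPM in cKO and 274 to 302 CPM in WT, most of it from Penk and Ppp1r1b. With the mean standardised level of these 12 genes as a covariate, the log2 fold change of Sncg was 0.27 (SE 0.11), and within genotypes the list correlated with Sncg at r = −0.52 (n = 12; permutation p = 0.0980, adjusted p = 0.531) and rho = −0.42 (permutation p = 0.196, adjusted p = 0.819), with −0.03 within cKO, −0.93 within WT and −0.53 without the 2 farthest libraries. The part of cerebellar nuclei cells in the Sncg difference was not tested.

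On the chromosomes, the nearest annotated gene at lower coordinates than Sncb is Gprin1, which encodes a neurite growth protein, 8985 bases away. It averaged 102 ± 2.60 CPM in cKO and 105 ± 3.34 in WT (SD, n = 6 each; edgeR adjusted p = 0.496). The nearest at higher coordinates, the antisense gene Gm16249, is 10918 bases away and was not analysed here. Sncg lies 675 bases from the start of Mmrn2, an endothelial matrix gene on the opposite strand. Mmrn2 averaged 6.07 ± 0.54 CPM in cKO and 5.59 ± 0.56 in WT (SD, n = 6 each), with 0.12 (SE 0.08) as log2 fold change and an adjusted p of 0.543 in the edgeR test. On the other side Fam25c, 14840 bases away, held 0 to 4 counts per library and did not pass the filter.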

How the data were processed

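Each cerebellum gave 1 library. The authors deposited unnormalised counts for each gene symbol, and their own DESeq2 results with log2 fold changes and standard errors, a test score, p-values and mean normalised signal, per the file headers. STAR, DESeq2 and mm10 are named in the submitters' processing notes. Which program counted the reads, with which gene models and strand setting, is not stated there. The sign of the deposited log2 fold changes was read from 400 genes called in both analyses, 400 of which had the same sign.

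The deposited counts were tested in edgeR 4.0.16 under R 4.3.3 (filterByExpr, TMM, quasi-likelihood test, no covariate), with Benjamini-Hochberg adjustment at 0.05 over 15467 genes. Standard errors come from the test statistic. Groups follow the genotype label. The test was checked on simulated counts. Alternatives used DESeq2 1.42.0 and sva 3.50.0, other scalings and filters, thinned counts, covariates and left-out libraries. Lengths are those of GENCODE release M21, found through gene symbols for 96.4% of genes tested. Relations within genotypes used log2 CPM with 0.5 counts added and 100000 permutations. Coding sequences were aligned in Biopython 1.88.

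The members and the gene lists were chosen with earlier results of these data known. Genes were named by rule: the 2 members, the 3 smallest p in each list, the 5 most alike and the nearest neighbours. Other genes complete a count or were chosen after their values were seen. Results of some genes are not reported here.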

Additional observations from a re-analysis of the deposited data

Results flagged for a closer look

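In 34 groups of 6 libraries, made of the values of Sncb, Sncg, their ratio and each gene named with a fold change, a library that stood apart was found in 2, both for Mmrn2, the neighbour of Sncg. In cKO replicate 2 Mmrn2 reached 7.10 CPM, where the other cKO libraries had 5.65 to 6.12 CPM. In WT replicate 4 it was at 4.51 CPM, where the other WT libraries had 5.46 to 6.03 CPM. Each gap to the nearest library exceeded Dixon's critical share of the group's range, which chance alone exceeds in about 1 of 20 groups. For Sncb, Sncg and their ratio 0 libraries stood apart by this measure.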

How the results depend on the processing

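The log2 fold changes of Sncb and Sncg kept their sign in all 21 alternatives, at −0.11 to −0.06 for Sncb and 0.10 to 0.40 for Sncg. Leaving out each library in turn gave −0.11 to −0.06 for Sncb and 0.19 to 0.29 for Sncg. At 57 to 159 counts per library, depth limits every statement on Sncg. Of all genes, 409 were called, against 189 with surrogate variables, and 272 (without WT replicate 3) to 459 (without cKO replicate 5) with a library left out. Of the kinase list 1 gene was called, against 2 with DESeq2 and 1 to 2 with a library left out. Of the chaperone and turnover list 2 were called, against 1 with surrogate variables, 3 with the GC slope as a covariate and 1 to 2 with a library left out; the causes were not tested. With longest transcript lengths the ratio of Sncb to Sncg per kilobase was 67.8 in cKO and 83.9 in WT, since the lengths themselves differ. The within-genotype CV ran from 3.86% to 5.03% for Sncb and from 9.99% to 13.4% for Sncg. The relation of Sncb to the vesicle and SNARE genes kept r at 0.84 or above in all 15 alternatives, each chosen after the data were seen. No paired analysis was possible because replicate numbers only follow the order of deposit.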
